A study of Mus musculus with 180 samples.

Results

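The genes described here are 9 CC chemokines of activated macrophages, *Ccl2*, *Ccl3*, *Ccl4*, *Ccl5*, *Ccl7*, *Ccl9*, *Ccl12*, *Ccl17* and *Ccl22*. They were chosen by their symbols, are 9 of the 25 genes with a *Ccl* symbol and a number, and 9 of the 45070 genes with a normalized value. The values come from RNA-seq of bone marrow-derived macrophages (BMDMs), wild type by their labels and grown, by the methods, from male C57/BL6 mice 6 to 8 weeks old. Each culture received 1 of 58 clinical kinase inhibitors (CKIs) or the vehicle DMSO for 1 h, and then LPS at 10 ng/mL for 2 h. Every group, DMSO included, was thus stimulated with LPS, and unstimulated cells are not analysed here, so a higher or lower value below is a difference from LPS with DMSO and not a measure of induction. There were 3 samples for each CKI and 6 for DMSO, 180 in all. The DMSO samples come as 2 labelled sets of 3, s1 and s2, and no label ties a CKI to a set. The concentration was set for each CKI separately, so CKIs with the same designated target were not compared at matched doses.

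CC chemokines are small secreted proteins that draw leukocytes along a gradient by binding G protein-coupled receptors of the CCR family. Macrophages that sense LPS through TLR4 switch on many of their genes within hours, through NF-kB, MAP kinases and, for some, a secondary wave of interferon and JAK-STAT signalling. Ligands of CCR2 recruit inflammatory monocytes, the MIP-1 chemokines and RANTES act on monocytes, macrophages and T cells, and ligands of CCR4 act on Th2 and regulatory T cells. *Ccl17* and *Ccl22* are also known as genes that IL-4 and STAT6 raise in alternatively activated macrophages.

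In the mm10 annotation of the table the members lie in 3 groups. The CCR2 ligands sit together on the plus strand of chromosome 11, *Ccl2* (MCP-1) at 82035577-82037452, *Ccl7* (MCP-3, also a ligand of CCR1) at 82045712-82047525 and *Ccl12* (MCP-5) at 82101845-82103399. The MIP-1 chemokines and RANTES follow further along the same chromosome, with *Ccl5* (RANTES) at 83525778-83530518, *Ccl9* (MIP-1 gamma) at 83572917-83578636 and *Ccl3* (MIP-1 alpha) at 83647843-83649378 on the minus strand, and *Ccl4* (MIP-1 beta) at 83662584-83664683 on the plus strand. The CCR4 ligands are on the plus strand of chromosome 8, *Ccl22* (MDC) at 94745684-94751388 and *Ccl17* (TARC) at 94810453-94812036. The values are sums over the exons of each gene. *Ccl5* overlaps *Gm32650* on the other strand, whose mean normalized value over all samples was 10.9, and reads of the pair cannot be told apart, as strand is not named in the counting.

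RefSeq promoters of build GRCm38.p6 were available for 5 of the 9 members, *Ccl3*, *Ccl9*, *Ccl12*, *Ccl17* and *Ccl22*. The 250 bases before the start are printed for *Ccl17* and *Ccl22*, which reached their highest values in the same CKI, and for *Ccl3* and *Ccl9*, whose log2 fold changes over the CKIs were the most alike among the members. The sequences run 5′ to 3′ on the gene's strand, and capitals mark matches to the letters searched.
Ccl17, chr8:94810203-94810452, plus strand: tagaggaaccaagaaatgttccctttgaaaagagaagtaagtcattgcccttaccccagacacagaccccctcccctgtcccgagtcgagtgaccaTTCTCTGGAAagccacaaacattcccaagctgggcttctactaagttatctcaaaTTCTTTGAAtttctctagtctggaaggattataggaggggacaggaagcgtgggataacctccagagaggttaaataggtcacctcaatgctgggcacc
Ccl22, chr8:94745434-94745683, plus strand: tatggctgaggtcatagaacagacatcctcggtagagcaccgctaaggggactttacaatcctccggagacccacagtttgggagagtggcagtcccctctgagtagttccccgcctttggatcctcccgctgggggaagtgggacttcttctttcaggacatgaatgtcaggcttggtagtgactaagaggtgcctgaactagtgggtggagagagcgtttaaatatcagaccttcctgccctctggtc
Ccl3, chr11:83649379-83649628, minus strand: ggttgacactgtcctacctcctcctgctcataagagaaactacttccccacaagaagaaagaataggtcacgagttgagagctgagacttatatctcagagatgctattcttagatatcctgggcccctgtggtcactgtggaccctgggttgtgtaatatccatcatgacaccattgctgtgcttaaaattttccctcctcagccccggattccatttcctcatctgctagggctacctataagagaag
Ccl9, chr11:83578637-83578886, minus strand: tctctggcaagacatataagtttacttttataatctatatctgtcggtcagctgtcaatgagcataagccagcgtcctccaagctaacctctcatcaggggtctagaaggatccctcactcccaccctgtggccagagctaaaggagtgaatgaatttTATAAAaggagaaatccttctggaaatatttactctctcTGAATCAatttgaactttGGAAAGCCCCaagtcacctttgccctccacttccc
The letters searched on both strands were GGGNNNTTCC (an NF-kB motif), TGANTCA (AP-1), GAAANNGAAA (IRF), TTCNNNGAA (STAT) and TTCNNNNGAA (STAT6), and TATAAA was searched on the gene's strand. The *Ccl17* window held the STAT6 letters from 154 to 145 bases and the STAT letters from 99 to 91 bases before the start, which 5.85% and 7.02% of the 32851 promoters of the same length also hold. The *Ccl9* window held the TATA letters, the AP-1 letters and, on the other strand, the NF-kB letters, found in 7.59%, 6.75% and 4.65% of all promoters. The *Ccl12* window held the TATA letters from 31 to 26 bases before the start. None of these letters was found in the windows of *Ccl3* and *Ccl22*, and the IRF letters, held by 2.98% of all promoters, was in none of the 5. The matches overlapped no other match, and a match is a description of letters and not a binding site.

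The deposited values had been scaled by the authors and summed to between 9477340 and 12273349 per sample. Of the 180 samples, 27, none of them DMSO, held whole numbers between 1 and 60 that no gene took, as values have that were scaled up. These samples belong to 20 CKIs, of which 4 (BGT226, IMD0354, Lenvatinib and Mubritinib) hold 9 of the calls described below. The share of the normalized values taken by the 13 mitochondrially encoded protein-coding genes varied from 0.236% to 2.25%, within DMSO from 0.301% to 1.05%, and its mean was above that of DMSO (0.597%) in 45 of the 58 CKIs. The cells expressed macrophage markers, such as *Lyz2* with 44126 to 131174 and *Csf1r*, the M-CSF receptor, with 24416 to 25418 in DMSO. The 7 lymphocyte markers together reached at most 7 in any sample and the 4 of mast cells and basophils at most 4. The 7 neutrophil markers summed to between 266 and 931 in DMSO and between 216 and 2122 in the CKI samples, with *Ly6g* at 0 to 1 in DMSO and at most 5 elsewhere, the 7 dendritic cell markers to between 76 and 117 and between 43 and 186, and the 6 stromal markers to between 19 and 150 and between 6 and 226. In these bulk samples a lower value cannot be told apart from fewer cells that make the transcript, and the replicates are described in the methods as independent biological ones.

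With LPS and DMSO the 9 members covered more than 3 orders of size. Per kb of cDNA, *Ccl4* had the highest level, with a mean normalized value of 96455 ± 18037 (SD, n = 6). *Ccl5* followed with 16532 ± 4380, *Ccl3* with 9924 ± 2986, *Ccl2* with 9544 ± 638, *Ccl9* with 6893 ± 2578 and *Ccl7* with 6200 ± 1945 per kb. The DMSO ranges of neighbours from *Ccl5* to *Ccl7* in this order overlapped, so that the order of neighbours was not resolved beyond the spread between samples. *Ccl5* was however above *Ccl3* in each of the 6 samples. Its range, 12480 to 24650 per kb, also lay wholly above those of *Ccl2* (8656 to 10460), *Ccl9* (4420 to 11330) and *Ccl7* (4715 to 9830). *Ccl12* had 752 ± 194, *Ccl22* 200 ± 39.3 and *Ccl17* 34.0 ± 13.5 per kb. The ranges of these 3 genes overlapped neither each other nor those of the genes above them, and *Ccl17* was near the limit of what could be measured.

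**Figure D1:**
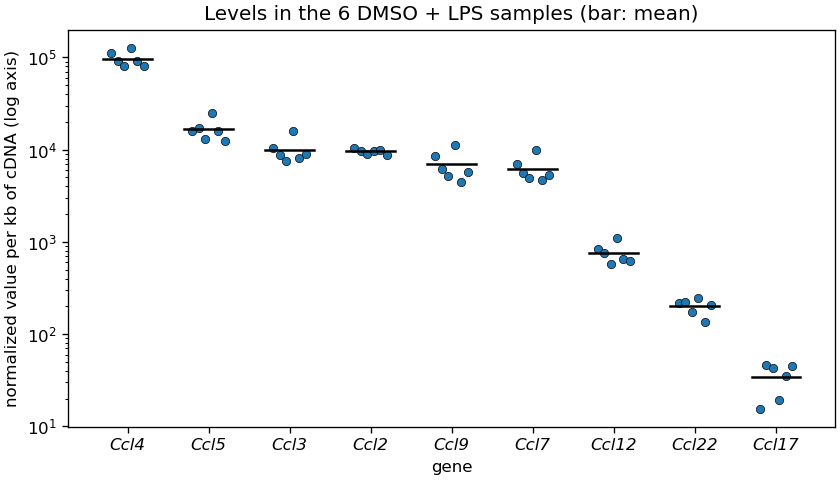
Levels of the 9 chemokines in the 6 samples with DMSO and LPS, as normalized value per kb of cDNA on a log axis, with each point a sample and each bar the mean of a gene. *Ccl4* stood above all other members in every sample. The points of *Ccl5* overlapped in range with those of *Ccl3* and lay above those of *Ccl2*, *Ccl9* and *Ccl7*. The ranges of *Ccl3*, *Ccl2*, *Ccl9* and *Ccl7* overlapped, and *Ccl12*, *Ccl22* and *Ccl17* were set apart below.

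The spread within DMSO differed between the genes. *Ccl2*, the monocyte attractant MCP-1, had 8431, 7753 and 7253 in set s1 and 7823, 7919 and 6977 in set s2, a coefficient of variation of 6.69%. That of the other members lay between 18.7% for *Ccl4* and 39.6% for *Ccl17*. For 7 of the 9 genes, all but *Ccl2* and *Ccl17*, replicate 1 of set s2 was the highest DMSO sample. It had 12411 for *Ccl3* and 34090 for *Ccl9*, where the other 5 samples had 5987 to 8207 and 13295 to 25656. That sample also had the highest mitochondrial share of the 6, 1.05%. The means of the sets s2 and s1 differed by between −0.09 and 0.24 on the log2 scale, and no member was called between them (limma with Benjamini-Hochberg adjustment, adjusted p = 1 for each, and exact permutation tests, p = 0.60 to 1, where 3 against 3 samples allow no p under 0.1). Of all 12714 genes, limma called 0 between the sets, and 310 had an unadjusted p under 0.05.

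Each CKI was then compared with the 6 DMSO samples, which asks which kinase inhibitors alter the chemokine output of LPS-stimulated BMDMs. For 12714 genes with a mean value of at least 10, values were taken as log2(normalized value + 1), the scale of every log2 fold change below, and tested with limma. A gene was called higher or lower at a Benjamini-Hochberg adjusted p under 0.05. Of the 522 pairs of a member and a CKI, 32 were called higher (6.13%) and 5 lower (0.958%), against 2.52% and 1.65% of all pairs of a gene and a CKI. The median log2 fold change of the member pairs was 0.24, and that of all pairs 0.06. All 3 CKI samples were above all 6 DMSO samples in 50 pairs (9.58%, against 4.52% of all pairs) and below them in 10 (1.92%, against 2.02%). The calls fell on 15 of the 58 CKIs, and 43 CKIs had none. With a further scaling by the median of ratios, 28 member pairs were called higher and 8 lower, while of all genes 12303 pairs were higher and 17550 lower in place of 18612 and 12195. Without replicate 1 of the DMSO set s2 there were 51 member calls higher, and without replicate 1 of every CKI 13, while the share of all pairs called higher moved the same way, from 2.52% to 3.94% and 1.07%.

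**Figure D2:**
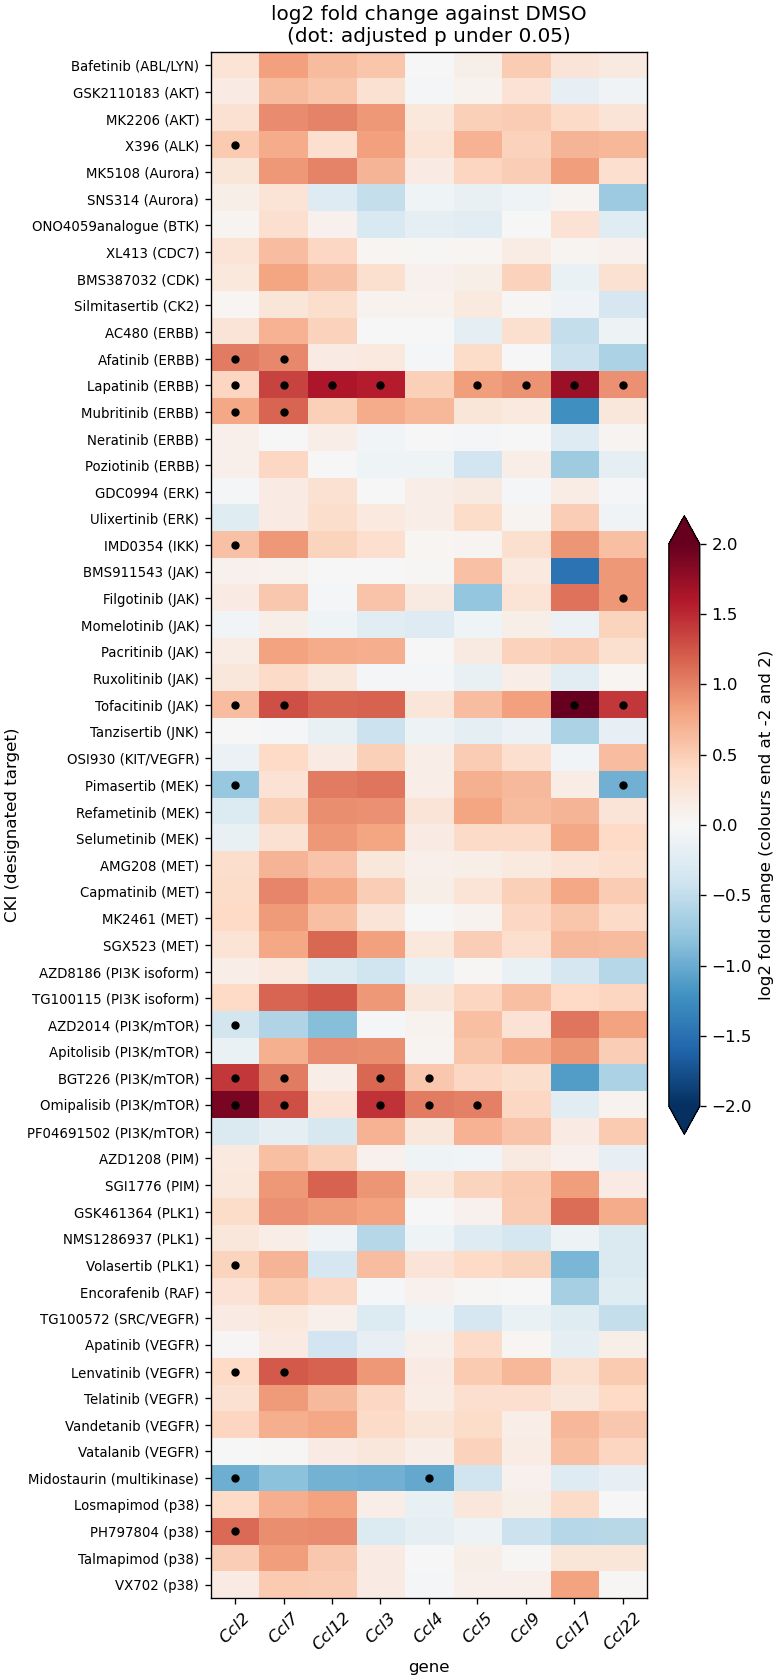
Log2 fold change of the 9 chemokines (columns, CCR2 ligands first, CCR4 ligands last) in each of the 58 CKIs (rows, ordered by designated target) against DMSO, in red where higher and blue where lower, with a dot where the adjusted p was under 0.05. Most dots lie in the *Ccl2* and *Ccl7* columns and in the rows of Lapatinib, Omipalisib, BGT226 and Tofacitinib, and 43 rows have no dot.

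*Ccl2*, the first of the CCR2 ligands, was called more often than any other member, higher in 11 CKIs and lower in 3. Omipalisib, an inhibitor designated for PI3K and mTOR, gave the highest values, 27618, 31115 and 27303, where DMSO had 6977 to 8431. BGT226, designated for the same kinases, gave 21641, 22515 and 17691, and PH797804, designated for p38, 14799, 16544 and 19484. None of these 9 samples overlapped with DMSO. The means rose by log2 fold changes of 1.90, 1.42 and 1.13 (SE 0.12 each, adjusted p = 2.8e-28, 1.4e-19 and 2.6e-12 by limma with Benjamini-Hochberg adjustment). *Ccl2* also rose in Afatinib (1.03), Mubritinib (0.78), Tofacitinib (0.62), IMD0354 (0.58), X396 (0.52), Volasertib (0.45), Lapatinib (0.43) and Lenvatinib (0.40), always with all 3 samples above all DMSO samples. The share of all genes called higher was 0.102% in IMD0354, 0.204% in X396 and 0.393% in Volasertib, which had no other member called. In the opposite direction, Midostaurin, a multikinase inhibitor, gave 4316, 3159 and 4319, the MEK inhibitor Pimasertib 4254, 4246 and 5227, and AZD2014, an inhibitor of mTOR with 13.5% of all genes lower, 6122, 5372 and 6431. All 9 samples were below the lowest DMSO sample, and the log2 fold changes were −0.98, −0.75 and −0.37 (SE 0.12 each, adjusted p = 5.1e-10, 2.6e-06 and 0.0201 by limma). The 7 calls in Omipalisib, BGT226, PH797804, Afatinib, Mubritinib, Midostaurin and Pimasertib were kept whichever sample was left out, and the other 7 were not (adjusted p up to 0.47). Without replicate 1 the calls in AZD2014, Lapatinib, Lenvatinib, Volasertib and X396 were lost, without replicate 2 those in AZD2014, Lapatinib, Lenvatinib and Tofacitinib, without replicate 3 those in IMD0354, Lenvatinib and Volasertib, without s2 replicate 3 of DMSO those in Lenvatinib and Volasertib, and without s1 replicate 3 or s2 replicate 2 that in Lenvatinib.

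*Ccl7*, which encodes MCP-3 and lies 8.26 kb from *Ccl2*, was called higher in 7 CKIs and lower in none. DMSO had 5543, 4486 and 3899 in set s1 and 7874, 3777 and 4217 in set s2. Lapatinib, an ERBB inhibitor, gave 11011, 13243 and 12569, the JAK inhibitor Tofacitinib 11911, 14283 and 9513, and Omipalisib 11748, 15248 and 9004, so that all 9 samples were above all of DMSO. These rises, the 3 with the largest log2 fold changes, were 1.35, 1.29 and 1.29 (SE 0.28 each, adjusted p = 0.00267, 0.00497 and 0.00020 by limma). The other 4 were those of Lenvatinib (1.23), Mubritinib (1.17), BGT226 (1.03) and Afatinib (0.96). In the last 3 of these, 1 sample each, 6976, 6540 and 7754, lay inside the DMSO range. All 7 CKIs that raised *Ccl7* also raised *Ccl2*. The lowest values were those of Midostaurin, 2802, 1958 and 3611, all below DMSO, but the fall of 0.83 on the log2 scale was not called (adjusted p = 0.0775 by limma). The call in Omipalisib was kept in every fit with samples left out. The other 6 were lost without replicate 1 of every CKI (adjusted p = 0.0547 to 0.14 by limma). That in Lenvatinib was also lost without replicate 3 of every CKI (0.12) or s2 replicate 2 of DMSO (0.0674). Those in Afatinib, Tofacitinib and Mubritinib were lost without replicate 2 of every CKI (0.0589 to 0.32). Replicate 2 of Mubritinib had been scaled up and had the highest *Ccl7* value of all 180 samples, 15722. The fit without it, which left out replicate 2 of every CKI, had an adjusted p of 0.32 in Mubritinib.

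*Ccl12*, for MCP-5, was 54.3 kb further along and had a much lower level. DMSO had 448, 401 and 307 in set s1 and 587, 345 and 330 in set s2. It was called in 1 CKI, Lapatinib, where 1244, 1379 and 1032 were all above DMSO, with a log2 fold change of 1.62 ± 0.43 (SE, adjusted p = 0.00835 by limma). The largest fall, in Midostaurin with 209, 130 and 308, was −0.95 and was not called (adjusted p = 0.23). Without replicate 1 of every CKI the adjusted p in Lapatinib was 0.0573.

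Of the MIP-1 chemokines and RANTES, *Ccl3* encodes MIP-1 alpha. Its DMSO values were 8207, 6968 and 5987 in set s1 and 12411, 6466 and 7001 in set s2. Lapatinib gave 23398, 25668 and 19239, Omipalisib 21136, 21247 and 19601, and BGT226 25387, 13675 and 13890. All 9 samples were above DMSO, and the log2 fold changes were 1.57, 1.44 and 1.15 (SE 0.45 each, adjusted p = 0.0109, 0.0104 and 0.0398 by limma). These were the only calls of *Ccl3*. Its largest fall, in Midostaurin with 3654, 2689 and 6109, was −0.96 with an adjusted p of 0.26. The call in Omipalisib was kept in every fit with samples left out. That in Lapatinib was lost without replicate 1 of every CKI (adjusted p = 0.0573). That in BGT226 was lost without replicate 1 or 3 of every CKI or replicate 2 or 3 of either DMSO set (adjusted p = 0.0550 to 0.22).

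*Ccl4*, for MIP-1 beta, lies 13.2 kb from *Ccl3* on the opposite strand. DMSO had 72597, 59587 and 53204 in set s1 and 83174, 60239 and 53159 in set s2. Omipalisib gave 139316, 127837 and 119756, above all DMSO samples, a log2 fold change of 1.04 ± 0.20 (SE, adjusted p = 1.6e-05 by limma). BGT226 gave 114467, 83121 and 80645, of which 1 was above DMSO, and a log2 fold change of 0.54 ± 0.20 (adjusted p = 0.0264). Midostaurin gave 35952, 22671 and 36569, all below DMSO, and *Ccl4* fell by 1.02 ± 0.20 on the log2 scale (adjusted p = 1.3e-04). The call in BGT226, whose replicate 1 had been scaled up, was lost without replicate 1 of every CKI (adjusted p = 0.18). It was also lost without replicate 3 of either DMSO set (0.0605 and 0.0569). The other 2 calls were kept in every fit with samples left out.

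*Ccl5*, for RANTES, had 8523, 9137 and 6922 in set s1 and 13115, 8434 and 6638 in set s2. It rose in Omipalisib, with 17790, 18358 and 15638, and in Lapatinib, with 14868, 16697 and 14584. All 6 samples were above DMSO, and the log2 fold changes were 1.01 and 0.84 (SE 0.31 each, adjusted p = 0.00946 and 0.0382 by limma). The largest fall was that of the JAK inhibitor Filgotinib, where 5235, 5027 and 4831 were all below DMSO and the log2 fold change of −0.77 was not called (adjusted p = 0.0631). The call in Lapatinib was lost without replicate 1, 2 or 3 of every CKI (adjusted p = 0.0838 to 0.12). It was also lost without s1 replicate 3, s2 replicate 2 or s2 replicate 3 of DMSO (0.0712 to 0.0721).

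*Ccl9*, for MIP-1 gamma, had 25656, 18427 and 15742 in set s1 and 34090, 13295 and 17193 in set s2, the widest spread of the abundant members. It was called in Lapatinib alone, with 39748, 37783 and 33041, of which 2 were above DMSO, and a log2 fold change of 0.90 ± 0.31 (SE, adjusted p = 0.0277 by limma). The largest fall, in PH797804 with 21085, 12490 and 11977, was −0.42 and was not called (adjusted p = 0.60). The call was lost without replicate 1, 2 or 3 of every CKI (adjusted p = 0.0554 to 0.12). It was also lost without s1 replicate 3 or s2 replicate 2 of DMSO (0.0541 and 0.0871).

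The CCR4 ligands *Ccl22* and *Ccl17* are 59.1 kb apart. *Ccl22* had 392, 399 and 317 in set s1 and 443, 243 and 378 in set s2. Tofacitinib gave 674, 1192 and 1077, Lapatinib 582, 717 and 723, and Filgotinib, with 6.1% of all genes higher and no other member called, 630, 791 and 553, all of them above DMSO. The log2 fold changes were 1.42, 0.91 and 0.87 (SE 0.32 each, adjusted p = 0.00672, 0.0321 and 0.0427 by limma). Pimasertib gave 157, 228 and 171, all below DMSO, and *Ccl22* fell by 0.95 on the log2 scale (adjusted p = 0.0268). Among the other JAK inhibitors BMS911543 gave 446, 798 and 765 (log2 fold change 0.86, adjusted p = 0.0838), and Momelotinib, Pacritinib and Ruxolitinib had log2 fold changes of 0.45, 0.32 and 0.04, with no call. Each of the 4 calls was lost in at least 1 of the fits that left a replicate number out of every CKI. For Tofacitinib this was replicate 2 and for Pimasertib replicate 1 or 3. The calls in Lapatinib and Filgotinib were also lost without s1 replicate 3 or s2 replicate 2 of DMSO (adjusted p over all these fits 0.0523 to 0.17).

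*Ccl17* had 8, 24 and 22 in set s1 and 10, 18 and 23 in set s2, values so low that only a large difference was detectable. It rose in Tofacitinib, with 42, 101 and 78, and in Lapatinib, with 36, 68 and 68, all above DMSO. The log2 fold changes were 2.03 and 1.70 (SE 0.61 each, adjusted p = 0.0303 and 0.0345 by limma). The largest fall was that of BMS911543, with 1, 7 and 14 (−1.47, adjusted p = 0.14). Both calls were lost without replicate 1 or 2 of every CKI or without s2 replicate 2 of DMSO. That in Lapatinib was also lost without replicate 3 of every CKI or s1 replicate 1 of DMSO (adjusted p over these fits 0.0620 to 0.21). Both were also lost with no filter on low values (adjusted p = 0.0517 and 0.0665).

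**Figure D3:**
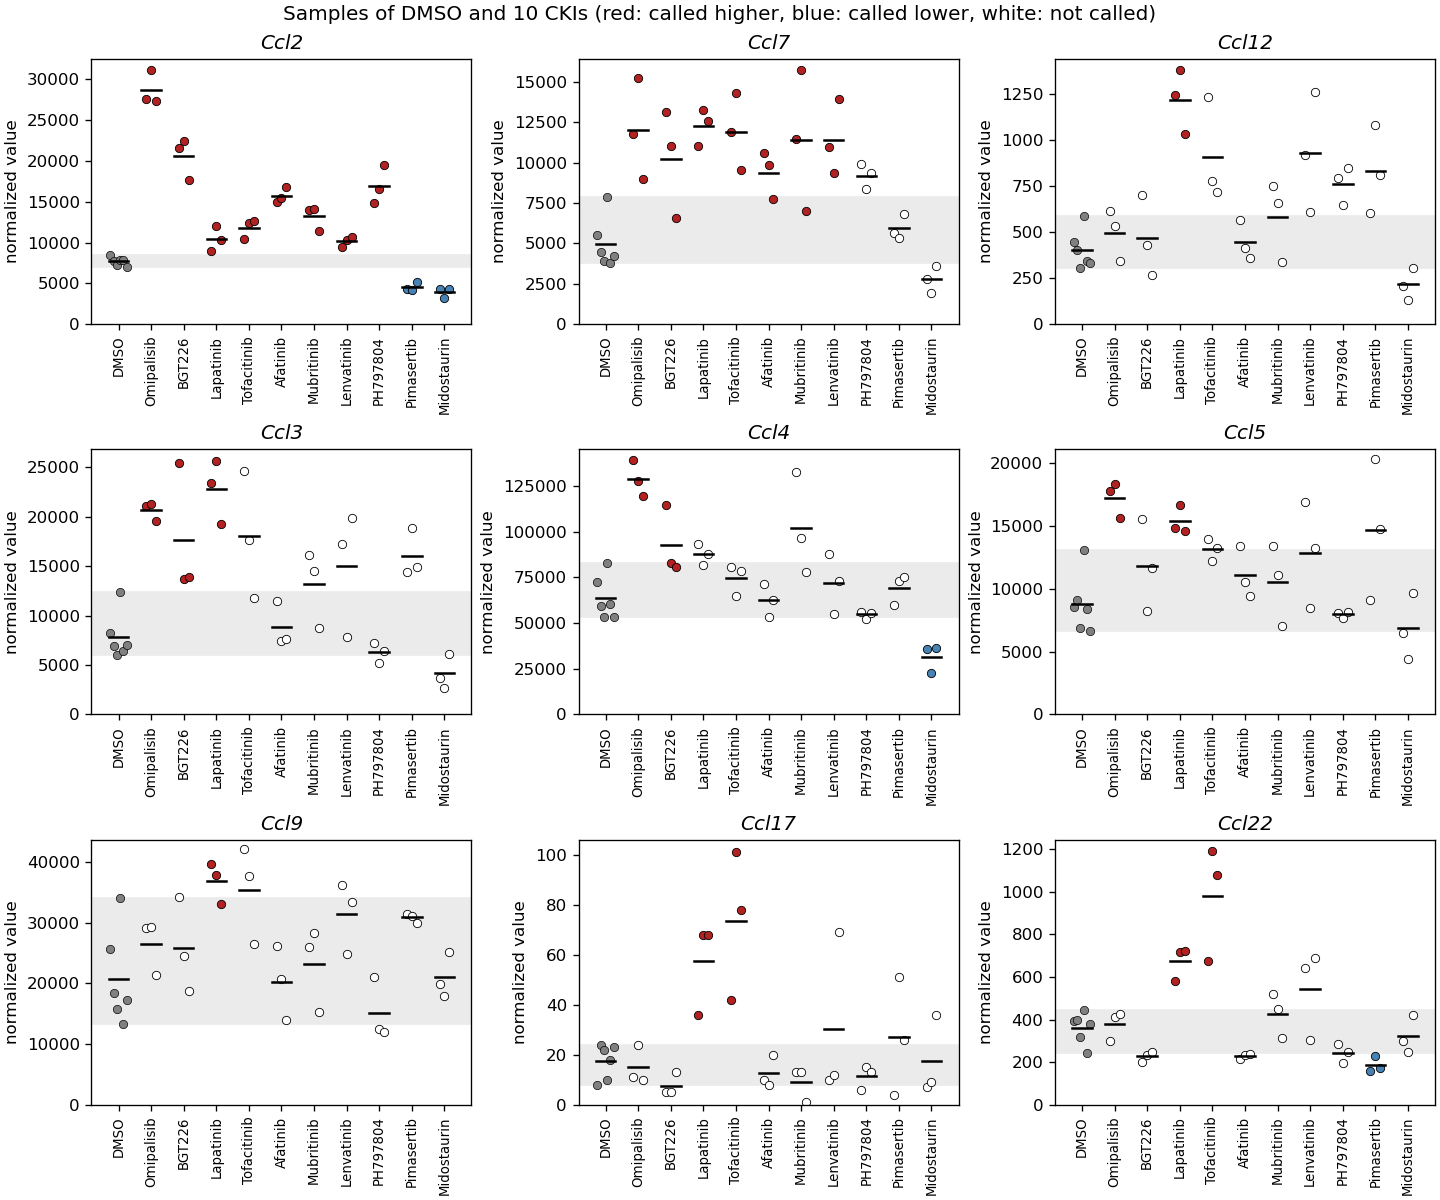
Normalized values of each chemokine in the 6 DMSO samples (grey points, with their range shaded) and in the 3 samples of each of 10 CKIs, with bars for the means, on axes that start at 0. Red points were called higher, blue points lower and white points not. For *Ccl2* the red and blue points lie outside the narrow DMSO range, and for *Ccl9* most points of all 10 CKIs lie inside it.

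Lapatinib, Omipalisib, BGT226 and Tofacitinib had calls of 3 or more members, and the sets of members differed. In Lapatinib 8 of the 9 were called higher, against 18.1% of all genes, and *Ccl4* with 93540, 81584 and 87753 was the one not called (log2 fold change 0.48, adjusted p = 0.0639 by limma). Replicate numbers paired the Lapatinib samples with DMSO, and when the number was fitted as a block *Ccl4* was called as well (adjusted p = 0.0119), a call that was lost once the mitochondrial share was added (0.32, adjusted p = 0.20). The neutrophil granule genes *S100a8*, *S100a9*, *Camp* and *Ngp* were also called higher in Lapatinib (1.58 to 1.77). There the 7 neutrophil markers summed to between 1246 and 1449, above all of DMSO, with *Ly6g* at 0. None of the 4 granule genes was called once the mitochondrial share and the block were fitted (0.50 to 1.07, adjusted p = 0.0788 to 0.22 by limma). In Omipalisib the 5 calls were *Ccl2*, *Ccl7*, *Ccl3*, *Ccl4* and *Ccl5*, against 17.5% of all genes, while *Ccl9* (0.42), *Ccl12* (0.30), *Ccl22* (0.07) and *Ccl17* (−0.21) had adjusted p-values from 0.33 to 0.89. In BGT226 *Ccl2*, *Ccl7*, *Ccl3* and *Ccl4* were called higher, against 24.1% of all genes. *Ccl17* with 5, 5 and 13 and *Ccl22* with 201, 235 and 250 had negative log2 fold changes there, −1.11 and −0.64, which were not called (adjusted p = 0.16 and 0.13). In Tofacitinib *Ccl2*, *Ccl7*, *Ccl17* and *Ccl22* were called higher, against 9.02% of all genes, and *Ccl3* (1.18), *Ccl12* (1.17) and *Ccl9* (0.82) missed the threshold with adjusted p-values of 0.0659, 0.0576 and 0.0649. *Camp* was called higher there too (1.53), a call that was lost with the mitochondrial share and the block (0.98, adjusted p = 0.20 by limma). The neutrophil markers *Elane* and *Mpo* had only 9 to 32 and 6 to 21 in DMSO. They were called lower in Omipalisib (−3.69 and −2.18) and BGT226 (−1.86 and −2.12), and *Elane* also in PF04691502 (−1.57). These calls were kept with the mitochondrial share and the block. The 4 granule genes were not called in these CKIs, nor were *Elane* and *Mpo* in Lapatinib or Tofacitinib. The part of such cells in the chemokine values was not tested.

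The other CKIs had 1 or 2 calls each. Afatinib, Mubritinib and Lenvatinib had *Ccl2* and *Ccl7* higher, against 9.06%, 1.08% and 11.4% of all genes. PH797804 had *Ccl2* higher, against 0.731% of all genes, and its *Ccl7* values of 9889, 8350 and 9326 were also all above DMSO (log2 fold change 0.93, adjusted p = 0.0580 by limma). Its replicate numbers paired with those of DMSO, and with the block *Ccl7* was called (adjusted p = 0.0217). Midostaurin had *Ccl2* and *Ccl4* lower, against 1.93% of all genes, and 8 of the 9 members had negative log2 fold changes there, all but *Ccl9* (0.08). Its numbers also paired with DMSO, and with the block *Ccl7* was called lower too (adjusted p = 0.0394). Pimasertib had *Ccl2* and *Ccl22* lower, against 5.68% of all genes, while *Ccl3* (1.07), *Ccl12* (1.04), *Ccl5* (0.70) and *Ccl9* (0.65) went the other way and were called higher only with the block, its numbers being paired (adjusted p = 0.0246 to 0.0440). These 4 calls were lost when the mitochondrial share, highest on average in Pimasertib (1.91%), joined the block (adjusted p = 0.41 to 0.99). The same 4 granule genes as in Lapatinib were called higher in Pimasertib (1.58 to 1.97), and the neutrophil markers summed there to between 1272 and 1468. They too were not called once the mitochondrial share and the block were fitted (−0.06 to 0.69, adjusted p = 0.51 to 0.98 by limma). Lenvatinib with the block gained *Ccl9* and *Ccl12* (adjusted p = 0.0299 and 0.0221), and TG100115, an inhibitor of PI3K isoforms with no call otherwise, *Ccl2*, *Ccl7* and *Ccl12* (0.0206 to 0.0344), both with paired numbers. Apitolisib and Capmatinib gained *Ccl7* (0.0350 and 0.0496), and Apitolisib *Ccl9* (0.0164). With the mitochondrial share in the same fit all of these gains were lost, in Lenvatinib *Ccl9* (0.03, adjusted p = 0.95) and *Ccl12* (0.19, 0.79), in TG100115 all 3 (0.31 to 0.62, 0.45 to 0.59), in Apitolisib *Ccl7* and *Ccl9* (0.03 and 0.06, 0.97 and 0.88) and in Capmatinib *Ccl7* (0.68, 0.0744). Of the 15 calls that the block added in CKIs with paired numbers, those of *Ccl7* in PH797804 and Midostaurin were the 2 kept. *Camp* was called higher in Lenvatinib and Apitolisib as well (1.44 and 1.57), and not once the mitochondrial share and the block were fitted (0.82 and 0.92, adjusted p = 0.36 and 0.27 by limma). Scaled-up samples were left out only together with the same replicate number of every other CKI. In those fits *Ccl2* was still called in BGT226 (adjusted p = 7.2e-12 without replicate 1 and 3.3e-15 without replicate 3 by limma). It was also called in IMD0354 (0.0418) and Mubritinib (0.00145) and not in Lenvatinib (0.16). *Ccl7* in BGT226 had 0.0809 without replicate 1 and 7.9e-04 without replicate 3. Over the 34 CKIs with paired numbers the block raised the member calls from 12 to 26 higher and from 4 to 5 lower, while the shares of all genes went from 1.84% to 3.65% and from 0.855% to 1.89%. Over all 58 CKIs the block gave 52 member calls higher and 7 lower, against 4.6% and 3.08% of all pairs of a gene and a CKI.

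CKIs with the same designated target, used at different concentrations, are set side by side without a test between them. Of the 5 inhibitors of PI3K and mTOR, *Ccl2* had log2 fold changes of 1.90 in Omipalisib and 1.42 in BGT226, −0.14 in Apitolisib, −0.28 in PF04691502 and −0.37 in AZD2014. The CCR4 ligand *Ccl22* had 0.07, −0.64, 0.50, 0.52 and 0.80 in the same order, none of them called in the fit without the block and the mitochondrial share. Of the 4 p38 inhibitors, PH797804 had 1.13 for *Ccl2*, and Talmapimod, Losmapimod and VX702 had 0.49, 0.39 and 0.17, with no call. The 3 samples of Talmapimod, 9979, 10849 and 11546, were all above DMSO, and its adjusted p was 0.30 over the genes of its own comparison and 0.00827 when p-values were adjusted over all comparisons. Of the 6 ERBB inhibitors, *Ccl2* and *Ccl7* were called in Afatinib, Lapatinib and Mubritinib, and Neratinib, Poziotinib and AC480 had no call of any member. All 3 MEK inhibitors had positive log2 fold changes for *Ccl3* (0.78 to 1.07) and *Ccl12* (0.87 to 1.04) and negative ones for *Ccl2* (−0.75 to −0.15), of which the value of *Ccl2* in Pimasertib was the only one called. The mean mitochondrial share was 1.91% in Pimasertib, 1.29% in Refametinib and 1.02% in Selumetinib, against 0.597% in DMSO, and with this share and the block in the fit *Ccl3* had −0.51, 0.09 and 0.28 and *Ccl12* −0.40, 0.16 and 0.40.

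The mitochondrial share moved with most of these genes. Within groups, over the 180 samples, the deviation of a gene from its group mean and that of the log2 mitochondrial share had a Pearson correlation of 0.91 for *Ccl9*, 0.86 for *Ccl3*, 0.82 for *Ccl7* and 0.81 for *Ccl12*. It was 0.62 for *Ccl5*, 0.59 for *Ccl22* and 0.53 for *Ccl4*, and 0.27 for *Ccl17* and 0.18 for *Ccl2*. Over all 12714 genes the median was 0.03, and 9.16% of them were above 0.7. All of these values come from the same libraries, so they are descriptions. *Ccl2*, the member whose values moved least with the mitochondrial share, also had the smallest standard error of the log2 fold change (0.12, against 0.20 to 0.61) and the most calls. *Ccl17*, with the next lowest correlation, had the largest standard error (0.61) and 2 calls.

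**Figure D4:**
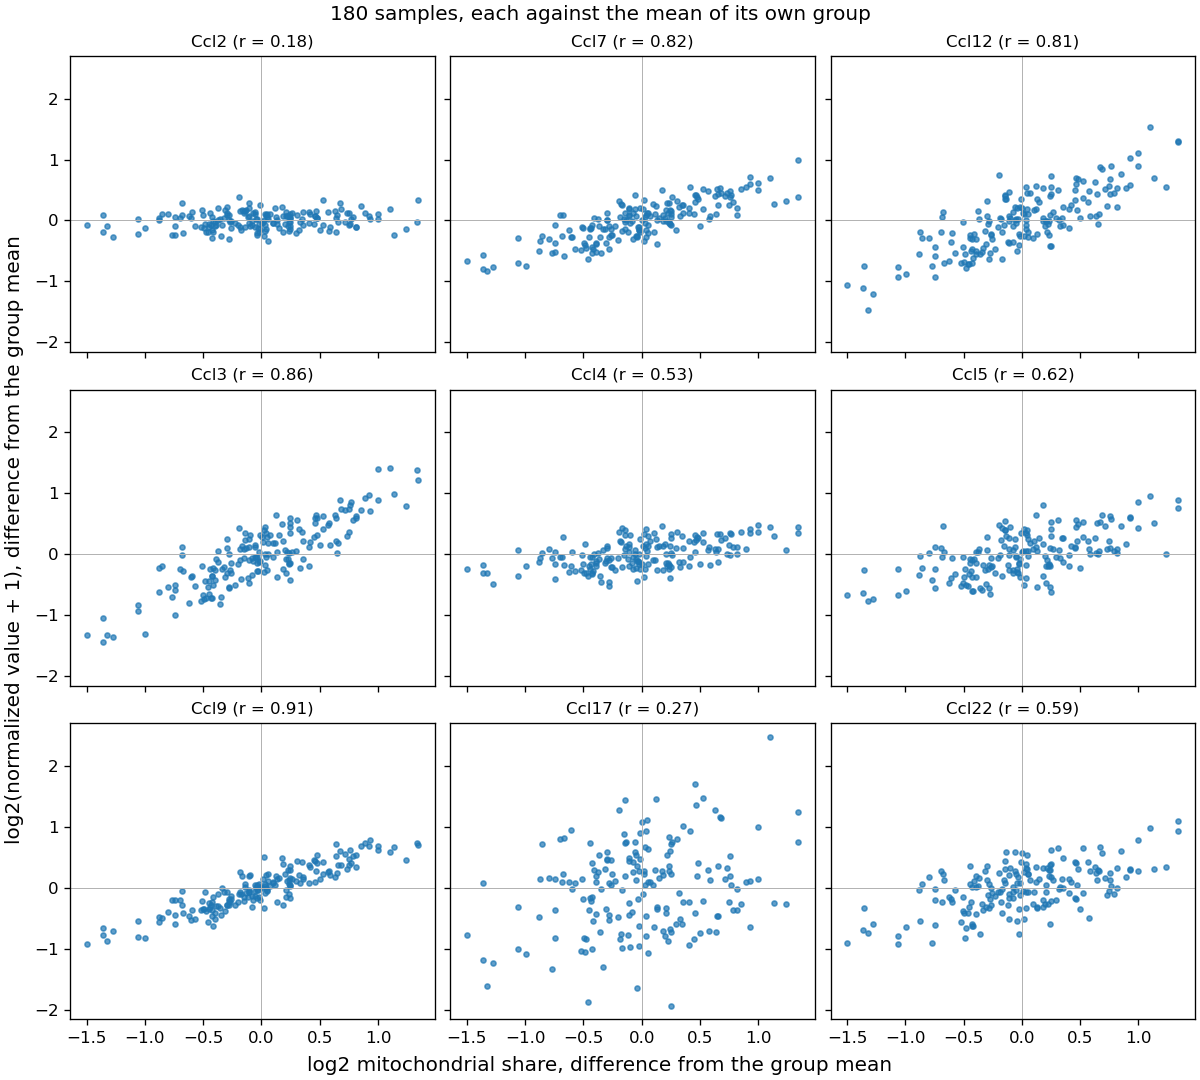
Deviation of log2(normalized value + 1) from the group mean for each chemokine (vertical axes) against the deviation of the log2 mitochondrial share (horizontal axes), with each point 1 of the 180 samples and the Pearson correlation r above each panel. The points rise steeply for *Ccl3*, *Ccl9*, *Ccl12* and *Ccl7* and lie nearly flat for *Ccl2*.

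The same share differed between the CKIs. It was 1.70%, 1.51% and 1.04% in the samples of Lapatinib, 1.93%, 1.51% and 0.744% in Tofacitinib, 2.25%, 1.72% and 1.76% in Pimasertib, and 1.35%, 1.14% and 2.00% in Lenvatinib, where DMSO had 0.301% to 1.05%. It was 0.958%, 1.05% and 0.667% in Omipalisib, 1.05%, 0.881% and 0.479% in BGT226, 0.571%, 0.535% and 0.899% in Midostaurin, and 0.974%, 0.520% and 0.483% in PH797804. With this share and the replicate block both in the fit, 25 of the 37 calls were kept. Lapatinib kept *Ccl7* (log2 fold change 0.75, adjusted p = 0.0142 by limma) and lost the other 7, among them *Ccl3* (from 1.57 to 0.59, adjusted p = 0.13) and *Ccl12* (from 1.62 to 0.72, adjusted p = 0.10). Tofacitinib kept *Ccl2* (0.53, adjusted p = 0.0129) and *Ccl7* (0.71, adjusted p = 0.0496) and lost *Ccl17* (1.16, adjusted p = 0.28) and *Ccl22* (0.88, adjusted p = 0.10). Lenvatinib lost both of its calls (adjusted p = 0.27 for *Ccl7* and 0.32 for *Ccl2*) and Filgotinib its 1 call (0.0643), while all calls in Omipalisib, BGT226, Afatinib, Mubritinib, PH797804, Midostaurin and Pimasertib were kept. In Pimasertib and Lenvatinib all 3 samples had shares above every DMSO sample, so there the fit cannot tell the share from the CKI. The part of the mitochondrial share in these differences was not tested beyond these fits.

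**Figure D5:**
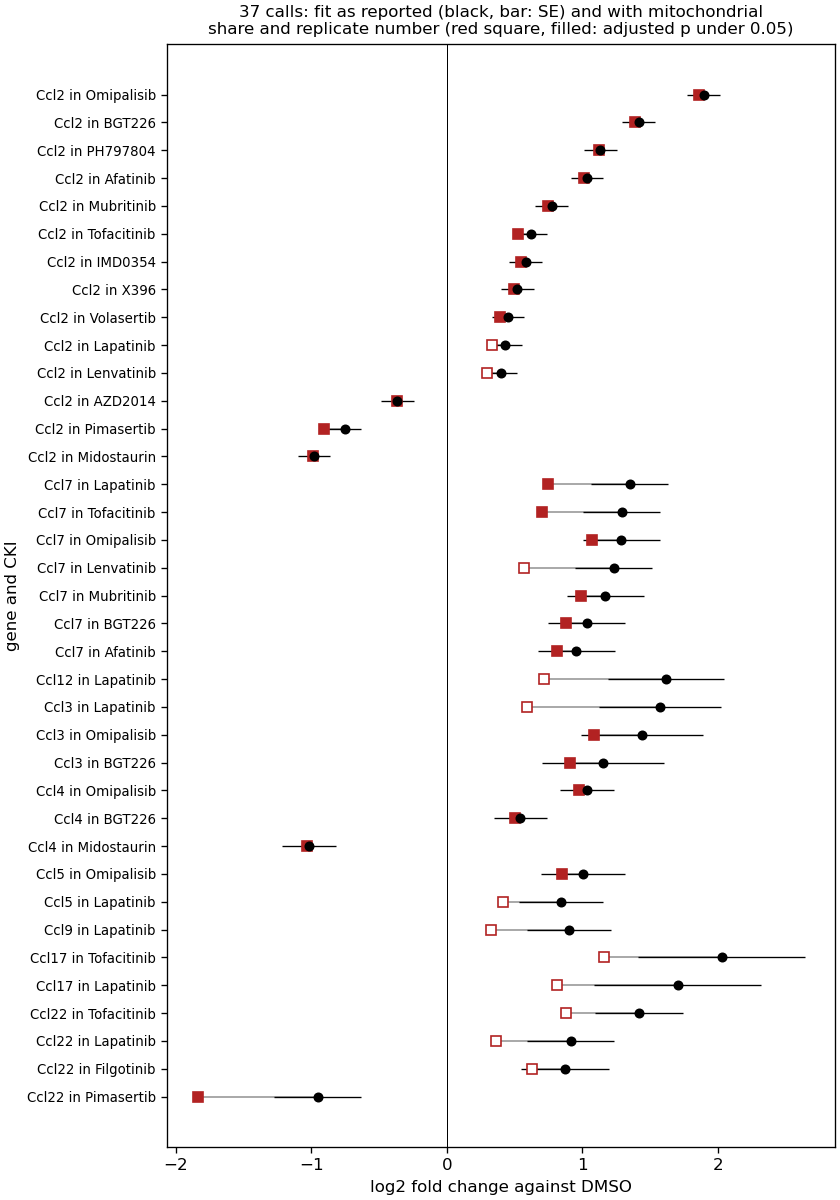
Log2 fold change against DMSO for each of the 37 calls, in black with its SE as reported, and as a red square in the fit with the mitochondrial share and the replicate number, filled where the adjusted p stayed under 0.05. The squares of *Ccl2* and *Ccl4* lie close to the black points, and those of *Ccl3* and *Ccl12* in Lapatinib and of *Ccl17* and *Ccl22* in Lapatinib and Tofacitinib lie nearer to 0 and are empty.

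In that fit the calls lower rose from 5 to 21, and those higher went from 32 to 25, against 2.3% and 2.02% of all pairs. These shares are over all CKIs together. The calls of single CKIs that follow have no share of all genes of their own beside them. Midostaurin then had 5 members lower, *Ccl2*, *Ccl3*, *Ccl4*, *Ccl7* and *Ccl12*, with log2 fold changes from −1.04 to −0.88. Pimasertib had *Ccl22* (−1.84, adjusted p = 1.7e-06 by limma), *Ccl2* (−0.91) and *Ccl7* (−0.67, from 0.30) lower. There *Ccl3* changed sign from 1.07 to −0.51, *Ccl12* from 1.04 to −0.40 and *Ccl9* from 0.65 to −0.27. *Ccl5* went from 0.70 to 0.02, and these 4 genes were not called (adjusted p = 0.41 to 0.99 by limma). The 3 samples of Pimasertib had shares of 1.72% to 2.25%, above every DMSO sample (0.301% to 1.05%). Its values in this fit thus rest on 1 slope, fitted over all groups and carried beyond the DMSO range. Whether the CKI itself moved the share was not tested. In the same fit AZD2014 and PF04691502 had all 3 CCR2 ligands lower, *Ccl2* (−0.37 and −0.38), *Ccl7* (−0.60 and −0.77) and *Ccl12* (−0.86 and −1.18). Without the share and the block *Ccl7* and *Ccl12* had −0.60 and −0.85 in AZD2014 and −0.20 and −0.32 in PF04691502, none called. The mitochondrial share was 2.17%, 0.934% and 1.02% in the samples of PF04691502. With the share and the block AZD2014 had *Ccl22* higher (0.79, adjusted p = 0.0144 by limma). PH797804 had the same 3 genes higher, *Ccl2* (1.13), *Ccl7* (0.89) and *Ccl12* (0.88), and *Ccl9* lower (−0.47). BGT226 had *Ccl17* (−1.34) and *Ccl22* (−0.78) lower beside its 4 members higher.

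The members were unequally alike in their response. Over the 58 CKIs, whose log2 fold changes all share the 6 DMSO samples, the Spearman correlation of the 36 pairs of members had a median of 0.48 and ran from 0.01 for *Ccl2* and *Ccl17* to 0.88 for *Ccl3* and *Ccl9*. *Ccl2* and *Ccl7* had 0.83, *Ccl3* and *Ccl4* 0.80 and *Ccl17* and *Ccl22* 0.65, while *Ccl2* had 0.16 with *Ccl9* and 0.36 with its neighbour *Ccl12*. Among all 12714 genes, those most like *Ccl2* were *Ccl7*, *Rars*, an arginyl-tRNA synthetase (0.68), and *Tnf*, the inflammatory cytokine (0.61), and those most like *Ccl7* were *Ccl2*, *Tmem171* and *Rbm47* (0.78 each). *Ccl3* was most like *Isg15* (0.92), *Peli1* (0.90) and the mitochondrial gene *mt-Co1* (0.90), and *Ccl9* most like the pseudogene *Rpl9-ps4* (0.94), whose reads can be shared with its parent gene, *mt-Co2* (0.94) and *Milr1* (0.93). For *Ccl4* they were *Ccl3*, *Polr2g* and *Arhgef12* (0.78 each), for *Ccl5* *Il15* (0.93) and the near-identical copies *Pnp2* (0.91) and *Pnp* (0.90), which can share reads, and for *Ccl12* *Tasl* (0.84), *Evi2a* and *Elf1* (0.82 each). For *Ccl22* they were *Il1a*, *Myadm* (0.73 each) and *Aebp2* (0.72), and for *Ccl17* *Fpr1*, *Tagap1* (0.66 each) and *Ccl22*.

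Other genes of the system were read from the same fits. Of 10 other CC chemokines 4 were tested, with 4 calls higher (1.72%) and 6 lower (2.59%) in 232 pairs, against 2.52% and 1.65% of all pairs. All 6 calls lower were of *Ccl24*, a ligand of CCR3, in BGT226 (−2.15), Volasertib, Mubritinib, PH797804, Afatinib and Omipalisib, CKIs in which *Ccl2* was called higher. *Ccl25* was higher in 2 CKIs, and *Ccl6* and *Ccl8* in 1 each. *Ccr7*, which guides migration to lymph nodes, was higher in 5 CKIs, among them BGT226 (1.37), Omipalisib (1.33) and AZD2014 (1.19), and lower in PH797804 (−2.12). *Ccr2*, the receptor of the *Ccl2* group, was higher in 5, from 1.12 in Lapatinib to 1.34 in Pimasertib. These were Pimasertib, Apitolisib, Lenvatinib, Lapatinib and Tofacitinib, the CKIs with the highest mean mitochondrial shares. The shares were 1.911%, 1.54%, 1.496%, 1.416% and 1.394%, against 0.597% in DMSO, and their part in the *Ccr2* values was not tested. *Ccrl2*, which binds chemerin, was higher in 4 CKIs, up to 2.27 in Omipalisib. *Ccr4*, the receptor of *Ccl17* and *Ccl22*, had at most 2 in any sample. All 10 NF-kB feedback genes were tested, with 18 calls higher (3.10%) and 41 lower (7.07%) in 580 pairs. Most of the calls lower were of the subunits *Nfkb2* (13 CKIs) and *Relb* (8) and of the deubiquitinase gene *Tnfaip3* (7, and 1 higher), while *Tnip1*, whose product binds A20, was higher in 7.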

How the data were processed

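RNA-seq of BMDMs treated with CKIs or DMSO and then LPS was analysed in 180 samples, grouped by their labels. Per the labels and the methods, polyA RNA was amplified with SMART-seq2, and the authors aligned reads to mm10 with TopHat2 2.1.1, removed blacklisted regions with bedtools 2.29.2, counted exonic reads of curated RefSeq genes and scaled each sample on genes of low variance. The deposited values are these normalized values rounded to whole numbers, treated as a score, a number without a set unit. Whole reads could not be recovered from them, so no count test was run, and the depth behind a value is known only through the totals given above. No column was left without a sample, and no libraries were identical.

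The main test was limma 3.58.1 (R 4.3.3) on log2(value + 1) with a variance trend, all 59 groups in one fit, 12714 genes with a mean of at least 10, and Benjamini-Hochberg adjustment over the genes of a comparison. On simulated data for BGT226 against DMSO with 12695 genes, 67% of genes changed by a log2 fold change of 1 were called. Of those changed by 2, 99% were called, and there were 9 false calls. The simulated samples were independent, with the same dispersion for every gene and no replicate or mitochondrial component. These rates therefore need not hold for the members in the real samples. Python 3.11.15 (pandas 2.3.3, NumPy 2.4.6, SciPy 1.17.1) made the tables and matplotlib 3.10.9 the plots. The members and gene lists were chosen with earlier results of these data known. By rule, each member is given with all samples of DMSO and of the CKIs with up to 3 largest rises and falls among its calls, or its largest fall or rise where it had none, together with the 3 genes most like it, the 3 genes with most calls of each list, and all members of CKIs with 3 or more calls. The other values of single CKIs were chosen after they were seen.

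The labels number the replicates of every group. Deviations from the group means correlated by 0.23 on average between samples of different groups with the same number. The mean between different numbers was −0.11. Since deviations within a group sum to 0, this second mean follows from the first and adds nothing to it. For 34 of the 58 CKIs all 3 samples correlated by more than 0.1 with the DMSO samples of their number, and only there was the number taken to pair the samples. The alternatives tried were a pseudocount of 0.5 or 10, a filter at 50 or none, median of ratios scaling, each DMSO set alone, no variance trend, only the groups compared, the replicate block, the mitochondrial share (in percent) with the block and, chosen after seeing the data, without it, a log2 fold change of at least 1, adjustment over all comparisons, and leaving out samples.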

Additional observations from a re-analysis of the deposited data

Results flagged for a closer look

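*Ccl3* in replicate 1 of the DMSO set s2, with 12411 against 5987 to 8207 in the other 5 DMSO samples, stood far from its group, since its gap to the nearest sample was 0.654 of the whole range, above Dixon's 95% critical value for 6 samples. The 9 members were examined in this way in the DMSO samples, and chance marks about 1 in 20 groups. The mitochondrial share of the same sample was 1.05%, the highest of the 6, and its part in the *Ccl3* value was not tested.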

How the results depend on the processing

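The 32 calls higher became 19 with DMSO set s1 alone, 16 with set s2 alone, 52 with the replicate block and 19 where a log2 fold change of at least 1 was also asked. Of all pairs of a gene and a CKI, 2.52% were called higher as reported, 1.12% and 1.21% with the sets alone and 4.6% with the block. The 5 calls lower became 3 with either set alone, 8 with median of ratios scaling, 21 with the mitochondrial share and the block, 16 with the share alone, which was chosen after seeing the data, 1 with a log2 fold change of at least 1 and 3 with adjustment over all comparisons. Leaving out a replicate number of every CKI or 1 DMSO sample gave 13 to 51 calls higher and 3 to 6 lower. The shares of all pairs were then 1.07% to 3.94% and 0.819% to 2.14%. In all other alternatives both counts stayed within 1.5 times. None of the 37 calls changed sign in any alternative run. Both pseudocounts, the fit without a variance trend and the replicate block lost none of them. The filter at 50 lost none of those it could test and left out *Ccl17*. No filter lost 10, *Ccl17* in both CKIs, *Ccl22* in Filgotinib, Lapatinib and Pimasertib, *Ccl5* and *Ccl9* in Lapatinib, *Ccl3* and *Ccl4* in BGT226 and *Ccl2* in Lenvatinib, and median of ratios scaling lost 5, *Ccl2* in Lenvatinib, *Ccl3* and *Ccl4* in BGT226, *Ccl5* in Lapatinib and *Ccl17* in Tofacitinib. The losses were 15 and 18 with the sets s1 and s2 alone, 11 with only the groups compared, 12 with the mitochondrial share with or without the block, 17 with the limit on size and 11 with adjustment over all comparisons. With 3 DMSO samples in place of 6, or 2 CKI samples in place of 3, fewer samples enter each comparison. Leaving out 1 DMSO sample lost from 0 calls (s2 replicate 1) to 9 (s2 replicate 2). The cause of the losses was not tested. The 7 calls kept in all alternatives and in all 9 fits with samples left out included *Ccl2* in Omipalisib, BGT226, PH797804 and Afatinib. The others were *Ccl4* in Omipalisib and Midostaurin, and *Ccl7* in Omipalisib. For the 24 CKIs whose numbers were not taken as pairs, the block moved the calls higher from 20 to 26 and those lower from 1 to 2, while the shares of all genes went from 3.49% to 5.95% and from 2.79% to 4.75%. *Ccl17* had the lowest values and the largest standard error of the members (0.61).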
